A study of Mus musculus with 6 samples.

Results

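The genes described here are the HOX genes of the mouse kidney, taken as every row of the expression table named Hoxa, Hoxb, Hoxc or Hoxd with a paralog number and no antisense suffix. Of 39 such genes annotated in the mouse genome, 30 stood in the table of 13203 genes: 9 of 11 in cluster A, 8 of 10 in cluster B, 6 of 9 in cluster C and 7 of 9 in cluster D. RNA was sequenced after removal of ribosomal RNA from whole kidneys of mouse embryos at E17.5. The mutant group was 3 kidneys with Six2Cre and floxed alleles of Brg1 (labelled Six2Cre Brg1flx/flx), and the control group 3 kidneys with the floxed alleles and no Cre named (labelled Brg1 flx/flx). Six2Cre acts in nephron progenitors, and any effect of Six2Cre itself and of the Brg1 deletion cannot be told apart here. Brg1, encoded by Smarca4, is the ATPase that drives SWI/SNF remodelling of chromatin. The series' design text calls the control kidneys wild type.

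HOX genes encode homeodomain transcription factors that give cells their position along the body axis. Within a cluster, genes of low paralog number lie towards the 3′ end and are active early and anteriorly, and genes of high number lie towards the 5′ end and are active late and posteriorly. In the mouse kidney, genes of paralog group 11 are needed in the metanephric mesenchyme and the nephron progenitors, where they act with Eya1 and Pax2, genes of group 10 are needed in the stroma, and Hoxb7 is known for its activity in the ureteric duct lineage.

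Expression was measured as coverage: all bases read over a gene, scaled by the authors so that libraries had a common total. Values are in kb of this normalised coverage, which is not divided by gene length. Log2 fold changes were taken after adding 1 to each value, and limma gave their standard error (SE). Before scaling, the libraries held 934 to 1209 Mb in mutant and 726 to 1126 Mb in control. Smarca4 had 316, 333 and 268 kb in mutant libraries mut1 to mut3, against 434, 419 and 371 kb in control libraries con1 to con3. All mutant values lay below all control values, with a log2 fold change of -0.42 (SE 0.10, limma adjusted p = 0.00481, exact two-sided permutation p = 0.1, the smallest this design allows). With the deposited p-values in place of limma the Benjamini-Hochberg adjusted p was 0.0581. Whole-gene coverage of the whole organ does not measure the deleted part alone. Nothing in the labels states that the kidneys came from separate litters, so p-values measure the spread between these kidneys.

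Several marker lists of the organ differed between the genotypes. Over all genes, 21.5% rose and 24.6% fell (limma adjusted p under 0.05). Of 14 measured markers of cortical and medullary stroma 14 rose, and their summed coverage was 8066 to 10018 kb in mutant against 3935 to 4057 kb in control. Of 13 markers of the nephron epithelium 13 fell, with sums of 1299 to 1463 kb in mutant against 4307 to 5104 kb in control. Of 10 nephron progenitor markers 7 fell and 2 rose (327 to 445 kb in mutant, 562 to 626 kb in control), and of 12 ureteric and collecting duct markers 4 rose and 4 fell (915 to 1051 kb in mutant, 825 to 936 kb in control). Of 9 markers of neurons, glia and spinal cord 3 were in the table (16.3 to 19.0 kb in mutant, 10.99 to 13.8 kb in control), 4 of 6 of skeletal muscle and limb (12.3 to 46.8 kb in mutant, 7.27 to 65.6 kb in control), and none of the 4 listed adrenal markers was. Of 7 urothelium markers 5 rose (151 to 203 kb in mutant, 44.9 to 89.0 kb in control), and of 8 smooth muscle and mural markers 6 rose (1203 to 1632 kb in mutant, 768 to 857 kb in control). Of 6 endothelium markers 2 rose, 1 fell and 3 did not pass (1044 to 1083 kb in mutant, 884 to 945 kb in control). Small nucleolar RNAs took 0.2998 to 0.637% of coverage in mutant and 1.69 to 2.33% in control. In RNA of a whole organ, fewer cells of a type and less RNA per cell cannot be told apart, and the part of these cell types and of the small nucleolar RNA share in the HOX results was not tested.

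Of the 30 HOX genes 12 rose, 5 fell and 13 did not pass in the mutant kidneys. Among all genes tested, 21.5% rose and 24.6% fell at the same threshold (limma adjusted p under 0.05), 46.1% in all. The 12 that rose were Hoxa3, Hoxa10, Hoxa11, Hoxb9, Hoxc4, Hoxc5, Hoxc6, Hoxc10, Hoxd3, Hoxd10, Hoxd11 and Hoxd12. The 5 that fell were Hoxb2, Hoxb4, Hoxb6, Hoxb8 and Hoxd8. In each of these 17 genes the mutant and control values did not overlap, and in the other 13 they did; over all genes the mutant values all lay above the control values in 26.5% and all below in 29.8%, 56.4% together. At least 2-fold changes were seen in 2 genes, Hoxd12 and Hoxa3. The Hoxa3 change was under 2-fold in some alternatives, at the least a log2 fold change of 0.86 without con3. The median log2 fold change of the 30 genes was 0.13, beside -0.03 over all genes.

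Mutant library mut1 was the highest of the mutant libraries in 21 of the 30 HOX genes, against 36.4% of all genes. Without it 11 HOX genes rose and 6 fell, with Hoxc4 no longer passing and Hoxb3 passing as lower (adjusted p = 0.0155). Control library con3 was the lowest of the control libraries in 18 of the 30 HOX genes, against 33.6% of all genes. Without con3 10 HOX genes rose and 5 fell, with Hoxc4 and Hoxc5 no longer passing. The share of all coverage that fell on the 30 genes was 0.136, 0.118 and 0.116% in mutant libraries mut1 to mut3, against 0.101, 0.102 and 0.0953% in control libraries con1 to con3.

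**Figure D1:**
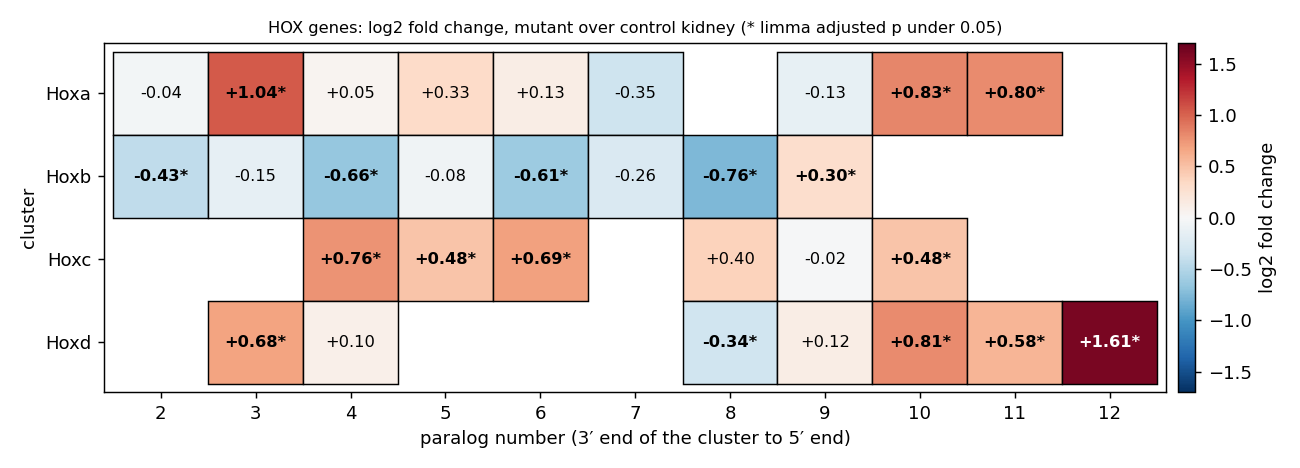
Log2 fold change of each HOX gene, mutant over control, with clusters in rows and paralog numbers in columns; the 30 genes in the table are drawn, and an asterisk marks a limma adjusted p under 0.05. Each of the 6 genes in columns 10 to 12 rose, and 4 of the 5 genes that fell are in the Hoxb row. Over all genes 21.5% rose and 24.6% fell.

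Genes of paralog groups 10 to 12 were higher in the mutant kidneys. All 6 measured genes of paralog groups 10, 11 and 12 rose, with log2 fold changes of 0.48 to 1.61 and a median of 0.81. Among all genes 21.5% rose, and 1 of the 4 genes of group 9 did. The other genes of groups 10 to 13, Hoxa13, Hoxb13, Hoxc11, Hoxc12, Hoxc13 and Hoxd13, were not in the table and were not analysed here. Summed coverage of the 6 genes was 651, 567 and 555 kb in mutant and 341, 366 and 354 kb in control. They made up 49.1% of all HOX coverage in mutant and 36.5% in control.

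Hoxd12, which patterns the digits of the limb, changed most among the 30 genes. It had 27.6, 19.4 and 18.8 kb in mutant and 5.35, 8.37 and 7.88 kb in control. The lowest mutant library held over 2 times the coverage of the highest control library, and mut1 stood above the other mutant libraries. The log2 fold change was 1.61 (SE 0.21, limma adjusted p = 0.000122), a 3.05-fold rise. Hoxd12 (chromosome 2, 74675013 to 74677705, plus strand, mm10) was among the weakly covered HOX genes in control, at 2.84 ± 0.640 kb per kb of exon, and stood at 8.65 ± 1.93 in mutant (SD, n = 3 each).

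In paralog group 11, Hoxa11 had 119, 103 and 106 kb in mutant and 64.9, 64.4 and 58.6 kb in control. Hoxd11 had 128, 105 and 111 kb in mutant and 75.7, 74.8 and 78.4 kb in control. The groups were well apart in both genes, with log2 fold changes of 0.80 (SE 0.09, limma adjusted p = 4.66e-05) for Hoxa11 and 0.58 (SE 0.10, adjusted p = 0.000490) for Hoxd11. With length and GC trends removed that of Hoxd11 was 0.98, and 23.9% of its RefSeq exon bases are shared on the same strand with Gm28309. These genes act redundantly in the mouse kidney and forearm. In the annotation 35.0% of the Hoxa11 exon bases are overlapped on the other strand by Hoxa11os, and whether the counting used strand is not stated in the labels. A row Hoxa11as, an older name of that antisense gene, rose as well, with 50.4, 38.9 and 33.8 kb in mutant and 29.6, 31.7 and 26.3 kb in control (log2 fold change 0.47, limma adjusted p = 0.0215), a call lost in 4 of 14 alternatives (up to 0.155). Reads of the gene and of its antisense partner cannot be told apart without strand.

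In paralog group 10, which acts in limb, motor neuron and reproductive tract patterning as well as in the kidney stroma, all 3 genes rose. Hoxa10 had 195, 165 and 166 kb in mutant and 92.9, 103 and 98.5 kb in control (log2 fold change 0.83, SE 0.09, limma adjusted p = 3.33e-05). Hoxd10 had 88.6, 80.1 and 78.1 kb in mutant and 43.5, 47.7 and 49.8 kb in control (0.81, SE 0.10, adjusted p = 6.20e-05). Each mutant value of these genes was at least 1.5 times each control value. Hoxc10 had 92.9, 94.0 and 74.8 kb in mutant and 59.3, 67.2 and 60.4 kb in control, a smaller difference with the lowest mutant library closer to the highest control library (0.48, SE 0.11, adjusted p = 0.00415). With the deposited p-values in place of limma the adjusted p of Hoxc10 was 0.0594. The calls of Hoxa10, Hoxa11, Hoxd10, Hoxd11 and Hoxd12 held in all 14 alternative settings or left-out libraries. They rose in the libraries in which all 14 stromal markers rose (sums given above), and the part of that shift was not tested.

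The bases just before the start of genes from both ends of the range are shown for the 3 Hoxd genes that rose together and for the 2 largest falls, both in cluster B. They are the 250 bases before the RefSeq start on GRCm38.p6, 5′ to 3′ in the direction of the gene; for Hoxd11, which has 2 listed starts, the stretch is that of the more downstream start. Capitals mark, on either strand, matches to TGATTNAT (a joint HOX and PBX motif), TTTATNG (a motif of posterior HOX proteins) or CCAAT (the CCAAT box); no shown match overlaps another.
Hoxd12 (chr2:74674763-74675012, plus strand): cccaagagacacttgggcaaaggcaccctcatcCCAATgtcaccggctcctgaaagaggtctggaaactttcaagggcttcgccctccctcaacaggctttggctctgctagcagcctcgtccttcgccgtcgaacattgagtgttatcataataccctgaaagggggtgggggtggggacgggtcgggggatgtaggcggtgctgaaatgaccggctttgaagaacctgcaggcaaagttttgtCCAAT
Hoxd11 (chr2:74682073-74682322, plus strand): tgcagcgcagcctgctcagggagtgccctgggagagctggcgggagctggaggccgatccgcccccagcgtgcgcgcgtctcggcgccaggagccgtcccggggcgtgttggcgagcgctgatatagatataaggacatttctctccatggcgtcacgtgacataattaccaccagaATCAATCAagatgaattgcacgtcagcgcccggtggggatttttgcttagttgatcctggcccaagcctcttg
Hoxd10 (chr2:74691641-74691890, plus strand): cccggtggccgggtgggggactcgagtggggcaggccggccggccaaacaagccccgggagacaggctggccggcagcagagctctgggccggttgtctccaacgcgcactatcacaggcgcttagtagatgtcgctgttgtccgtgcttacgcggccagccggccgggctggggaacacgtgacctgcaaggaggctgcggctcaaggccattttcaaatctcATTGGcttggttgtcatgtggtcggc
Hoxb8 (chr11:96281655-96281904, plus strand): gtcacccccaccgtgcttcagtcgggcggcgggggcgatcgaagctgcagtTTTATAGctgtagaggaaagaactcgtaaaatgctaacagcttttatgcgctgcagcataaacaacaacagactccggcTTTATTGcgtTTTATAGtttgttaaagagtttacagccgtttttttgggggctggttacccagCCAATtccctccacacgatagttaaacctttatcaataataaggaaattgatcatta
Hoxb4 (chr11:96318017-96318266, plus strand): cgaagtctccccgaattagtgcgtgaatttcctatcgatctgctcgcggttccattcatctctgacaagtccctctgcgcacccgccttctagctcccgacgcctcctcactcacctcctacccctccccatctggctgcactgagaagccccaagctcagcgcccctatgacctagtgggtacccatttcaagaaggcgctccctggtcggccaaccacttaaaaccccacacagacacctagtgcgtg

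The Hoxb8 stretch held 3 matches to TTTATNG and 1 CCAAT, the Hoxd11 stretch 1 match to TGATTNAT, the Hoxd12 stretch 2 CCAAT and the Hoxd10 stretch 1 CCAAT. The Hoxb4 stretch held none of the 3 motifs, nor did the stretch of the other Hoxd11 start, which is not shown. Of 20 stretches for the 18 HOX genes with an entry, 2 held TGATTNAT, 2 held TTTATNG and 10 held CCAAT, where 2.82, 9.81 and 33.8% of 32851 mouse promoters of that length did. CpG pairs numbered 2 to 28 in the HOX stretches with a median of 12, against a median of 6 over all promoters. A match describes letters in this window and is not a measured binding site. Hoxa4, Hoxb2, Hoxb3, Hoxb5, Hoxb6, Hoxb7, Hoxb9, Hoxc5, Hoxc6, Hoxc8, Hoxc9 and Hoxc10 had no entry.

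**Figure D2:**
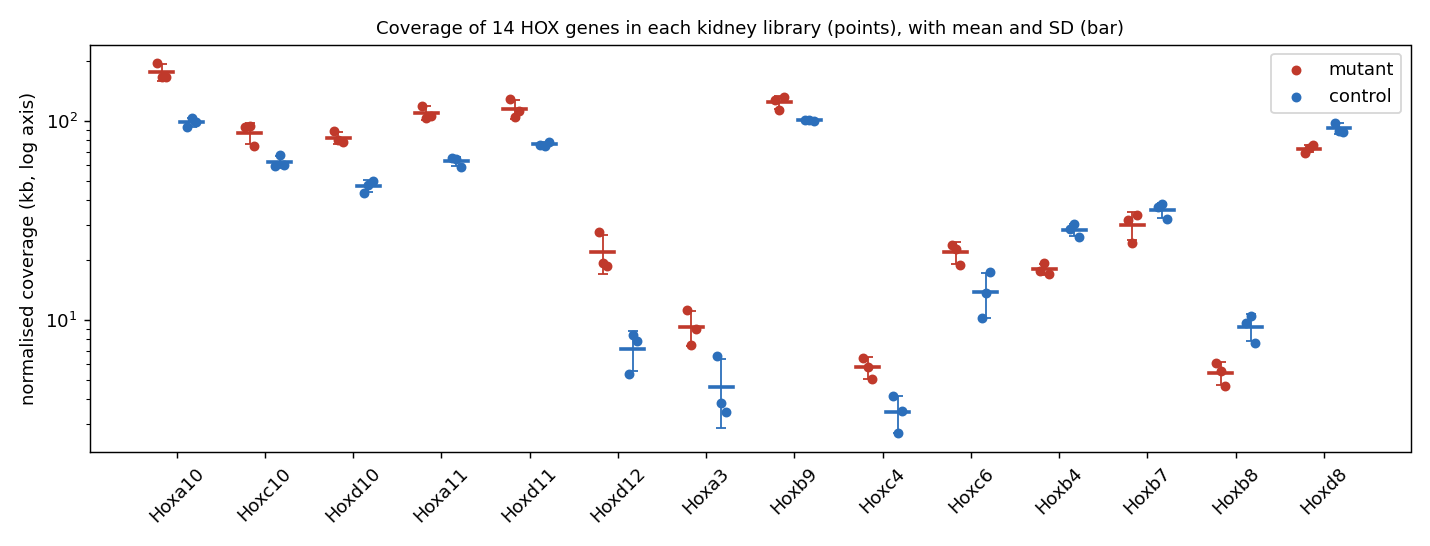
Normalised coverage in kb (log axis) of 14 HOX genes in each kidney library, mutant left of control; points are libraries, and bars the mean and SD of 3 kidneys. The points of the groups are apart in every gene shown except Hoxb7, and Hoxb4, Hoxb8 and Hoxd8 are the genes with all mutant points below the control points.

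In cluster B most called genes were lower in mutant. It had 8 genes in the table, of which 4 fell, 1 rose and 3 did not pass, with a median log2 fold change of -0.35. Clusters A, C and D together had 11 genes that rose and 1 that fell, with medians of 0.13, 0.48 and 0.58. Beside these counts, 21.5% of all genes rose and 24.6% fell. Hoxb8, which in mice is also active in blood cell precursors and microglia, had 6.09, 5.55 and 4.69 kb in mutant and 9.62, 10.5 and 7.67 kb in control. Every mutant library was below every control library (log2 fold change -0.76, SE 0.21, limma adjusted p = 0.0127), and without con2 the adjusted p was 0.0617. Hoxb4, known for its part in blood stem cells, had 17.7, 19.3 and 16.9 kb in mutant and 28.7, 30.2 and 26.2 kb in control. The libraries of each genotype lay close together, and the log2 fold change was -0.66 (SE 0.12, adjusted p = 0.00126).

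Hoxb6 (21.0 ± 2.71 kb in mutant, 32.1 ± 3.99 kb in control, n = 3 each) and Hoxb2 (28.3 ± 4.15 kb in mutant, 38.0 ± 4.41 kb in control) fell by 0.61 and 0.43 on the log2 scale, at limma adjusted p = 0.00445 for Hoxb6 and 0.0250 for Hoxb2. Hoxb6 missed the threshold with the deposited p-values (0.0514). The call of Hoxb2, a gene of hindbrain patterning, was lost in 7 of 14 alternatives: with the deposited p-values (0.106), quantile normalization (0.0685), length and GC trends removed (0.0516) or no variance trend (0.0520), and without mut3 (0.0996), con1 (0.101) or con2 (0.0850). Hoxb3 and Hoxb2 share 63.9% and 58.5% of their RefSeq exon bases with Hoxb3os on the other strand. Hoxb3 itself did not pass, at 76.7, 45.9 and 47.1 kb in mutant and 64.5, 64.3 and 54.2 kb in control, with mut1 far above the other mutant libraries.

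Hoxb7, which marks the ureteric duct lineage, had 32.0, 24.4 and 33.6 kb in mutant and 36.9, 38.1 and 32.3 kb in control. The groups overlapped, and the gene did not pass (log2 fold change -0.26, SE 0.14, limma adjusted p = 0.141). Hoxb5 did not pass either (-0.08, adjusted p = 0.807). Hoxb9, the most 5′ measured gene of the cluster and known from rib patterning, went the other way. It had 127, 114 and 131 kb in mutant and 101, 101 and 99.8 kb in control, so that the control libraries nearly coincided and all mutant libraries lay above them. Its log2 fold change was 0.30 (SE 0.09, adjusted p = 0.0143), and without mut3 it was 0.25 and missed the threshold (0.0553). Of 5 measured leukocyte markers 4 rose (135 to 142 kb in mutant, 64.8 to 72.0 kb in control). Of 6 measured erythroid markers 5 rose, beside 21.5% of all genes, while Hoxb4 and Hoxb8 fell. The part of these cell types in the HOX values was not tested.

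Cluster sums followed the same split. Cluster A summed to 391, 334 and 328 kb in mutant and 225, 228 and 212 kb in control, a ratio of means of 1.58. Cluster C summed to 152, 148 and 124 kb in mutant and 94.3, 106 and 100.1 kb in control (1.41), and cluster D to 464, 402 and 403 kb in mutant and 341, 338 and 332 kb in control (1.26). In each of these the mutant libraries lay above the control libraries. The sums are not divided by gene length, so genes with much coverage weigh most. Over paralogs 1 to 8 the groups of cluster A overlapped (54.6, 45.9 and 37.9 kb in mutant, 43.4, 39.3 and 34.1 kb in control). Those of cluster D lay below control (119, 121 and 122 kb in mutant, 137, 125 and 129 kb in control). Cluster C still lay above control (ratio 1.49). Cluster B summed to 320, 266 and 281 kb in mutant and 324, 324 and 286 kb in control (0.928), with overlapping groups. Cluster A took 29.1% of HOX coverage in mutant and 22.9% in control, whereas cluster B took 24.0% in mutant and 32.0% in control.

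**Figure D3:**
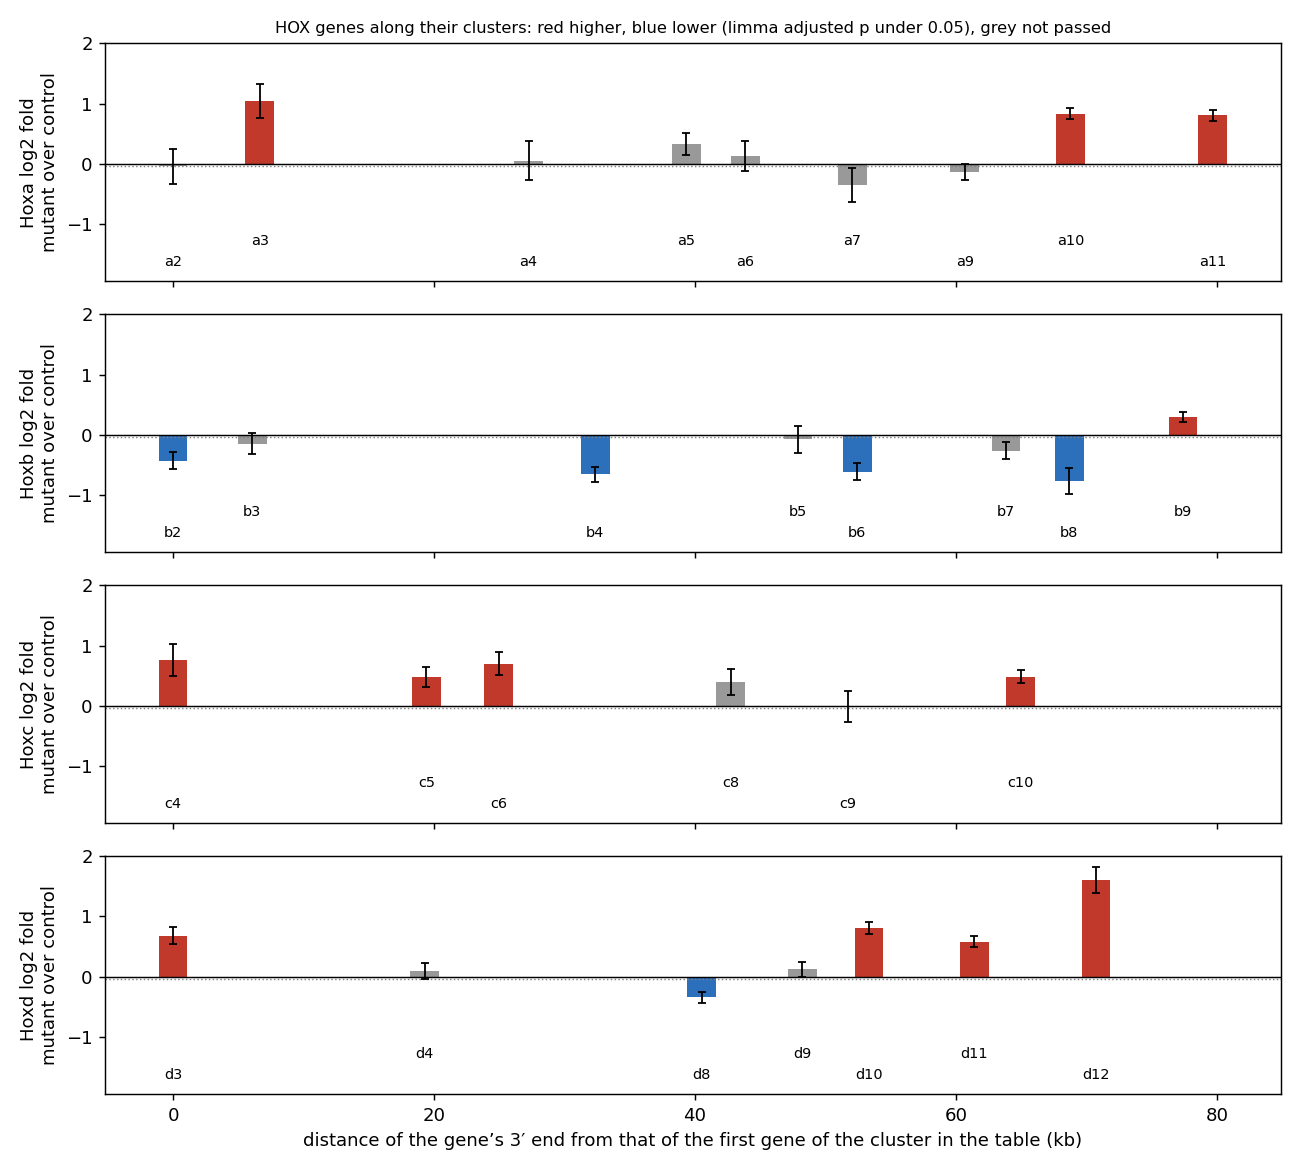
Log2 fold change (mutant over control, bars, with limma SE) of HOX genes against the distance of each gene's 3′ end from that of the first gene of its cluster in the table, in kb. Red bars rose, blue bars fell, grey bars did not pass, and the dotted line is the median of all genes, -0.03. Red bars stand at both sides of Hoxa, Hoxc and Hoxd; the tallest is at the 3′ side in Hoxa (Hoxa3, 1.04) and Hoxc (Hoxc4, 0.76) and at the 5′ side in Hoxd (Hoxd12, 1.61).

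In cluster A the rises lay at separate places. Hoxa3, needed for the thymus and the parathyroid, had 11.2, 7.49 and 9.05 kb in mutant and 6.64, 3.81 and 3.44 kb in control. Its groups were narrowly apart, with con1 close to mut2 (log2 fold change 1.04, SE 0.28, limma adjusted p = 0.0104). With the deposited p-values the call was lost (0.0838). Of the RefSeq exon bases of Hoxa3, 25.5% are overlapped on the other strand by Hoxaas2, Hoxaas3 or Gm29430. On the same strand 10.1% are shared with Gm28308. The part of these overlaps in the Hoxa3 rise was not tested. Hoxa2, Hoxa4, Hoxa5, Hoxa6, Hoxa7 and Hoxa9 lay between Hoxa3 and Hoxa10 or next to Hoxa3 and did not pass, at -0.35 to 0.33. Hoxa5 passed as higher once length and GC trends were removed (0.0470). Hoxa9 had 20.2 ± 1.78 kb in mutant and 22.2 ± 1.73 kb in control, directly beside Hoxa10 with its 175 ± 16.9 kb in mutant and 98.3 ± 5.27 kb in control (n = 3 each).

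In cluster C, Hoxc6 had 23.9, 22.9 and 18.8 kb in mutant and 10.3, 13.7 and 17.4 kb in control. The control libraries spread widely, and con3 came close to mut3 (log2 fold change 0.69, SE 0.19, limma adjusted p = 0.0115; 0.0822 with the deposited p-values). Hoxc4 had 6.49, 5.81 and 5.08 kb in mutant and 4.16, 2.70 and 3.49 kb in control (0.76, SE 0.27, adjusted p = 0.0364). Hoxc4 had the least coverage of the 30 genes, 2045 unscaled bases in its weakest library or 0.796 times its exon length. Its call was lost in 6 of 14 alternatives, namely without mut1 (0.101), mut2 (0.0755), mut3 (0.0502), con2 (0.121) or con3 (0.0648) and with the deposited p-values (0.0508). Hoxc5 had 12.2 ± 0.524 kb in mutant and 8.72 ± 0.651 kb in control (0.48, adjusted p = 0.0305). Its call was lost without mut2 (0.0770), mut3 (0.0640), con1 (0.108), con2 (0.0558) or con3 (0.0562). In the annotation 8.7% of the Hoxc10 exon bases are shared with Hoxc5 on the same strand. Coverage there could count for either gene, and its part in the Hoxc5 rise was not tested. Hoxc8 (0.40, adjusted p = 0.165; 0.0454 after removal of length and GC trends) and Hoxc9 (-0.02, adjusted p = 0.966) did not pass.

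Cluster D held changes of opposite direction within a short distance. Hoxd8 had 69.3, 72.7 and 75.3 kb in mutant and 98.0, 88.7 and 88.3 kb in control, with every mutant library lower (log2 fold change -0.34, SE 0.09, limma adjusted p = 0.00877). Without con1 its adjusted p was 0.0523. Hoxd9, the next gene, did not pass at 100.2, 77.4 and 72.5 kb in mutant and 79.0, 82.4 and 67.0 kb in control. Hoxd3 rose, at 21.7 ± 2.15 kb in mutant and 13.5 ± 0.785 kb in control (0.68, adjusted p = 0.002), and Hoxd4 did not pass at 26.8 ± 0.749 kb in mutant and 25.2 ± 3.19 kb in control (n = 3 each). In the annotation 88.0% of the RefSeq exon bases of Hoxd3 are shared with Hoxd4 or the transcript Gm28230 on the same strand. Coverage could thus be split between them, and the level of Hoxd3 is uncertain.

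Ratios between neighbouring genes within a library do not change when a library is scaled by a common factor. Each of 26 such pairs was taken as the more 5′ over the more 3′ gene. In 6 all mutant ratios lay above control, in 7 all lay below and 13 overlapped. Over single genes 56.4% did not overlap, and the share over other gene pairs was not computed. The separated pairs given next were selected from these, and each holds a called gene. The log2 ratio of Hoxa10 to Hoxa9 was 3.12 ± 0.0464 in mutant and 2.15 ± 0.184 in control, and that of Hoxb9 to Hoxb8 was 4.51 ± 0.252 in mutant and 3.45 ± 0.226 in control (SD, n = 3 libraries each). The ratio of Hoxd10 to Hoxd9 was -0.01 ± 0.151 in mutant and -0.69 ± 0.232 in control. The ratio of Hoxd11 to Hoxd10 went the other way, at 0.48 ± 0.0802 in mutant and 0.70 ± 0.0861 in control, as did that of Hoxb8 to Hoxb7, at -2.46 ± 0.355 in mutant and -1.96 ± 0.110 in control. In these 5 pairs the groups did not overlap, with an exact two-sided permutation p = 0.1, the smallest that 3 against 3 libraries allow, and 0.2 after Benjamini-Hochberg adjustment over 26 neighbouring pairs. Hoxc10 to Hoxc9 overlapped, at 3.96 ± 0.356 in mutant and 3.47 ± 0.182 in control (exact permutation p = 0.2).

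Read by paralog number, coverage was higher in mutant in groups 10 to 12 and mixed below, and the fold change did not climb steadily with the number. Across genes, which are not independent, the Spearman rank correlation of log2 fold change with paralog number was 0.31 over the 30 genes. Within clusters it was 0.067 in A (9 genes), 0.095 in B (8 genes), -0.77 in C (6 genes) and 0.54 in D (7 genes), so that in cluster C the larger rises were at the low numbers. Groups 10 and 11 had sums 1.66 and 1.61 times those of control, and Hoxd12 alone stood for group 12. Group 9 rose in 1 of 4 genes, Hoxb9. Group 8 fell in Hoxb8 and Hoxd8 and did not pass in Hoxc8. Groups 4 and 6 held a rise in cluster C (Hoxc4, Hoxc6) beside a fall in cluster B (Hoxb4, Hoxb6), so paralogs of the same number moved in opposite directions. Group 7 held no passing gene among Hoxa7 and Hoxb7, and in group 3 Hoxa3 and Hoxd3 rose while Hoxb3 did not pass. Over groups 4 to 8 the sums were 270, 257 and 251 kb in mutant, all below the 301, 293 and 277 kb in control. Of the 15 genes in these sums 3 rose, 4 fell and 8 did not pass, with a median log2 fold change of 0.05. Among all genes 21.5% rose and 24.6% fell.

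Levels of different genes were compared per kb of annotated exon. In mutant the order began with Hoxa10 (53.6 ± 5.17 kb per kb), Hoxb9 (48.1 ± 3.43), Hoxa11 (47.8 ± 3.78), Hoxc10 (45.7 ± 5.65) and Hoxd10 (45.3 ± 3.07). The SD range of each of these genes overlapped that of the next. In control it began with Hoxb9 (39.1 ± 0.286), Hoxd9 (35.6 ± 3.80), Hoxd8 (33.4 ± 2.0), Hoxc10 (32.6 ± 2.27) and Hoxa10 (30.05 ± 1.61, SD, n = 3 each). Hoxa10 thus moved to rank 1 in mutant, against rank 5 in control, and Hoxd8 to rank 8, against rank 3. Hoxd11 was at 27.2 in mutant and 18.1 in control per kb of all annotated exons, but at 103 in mutant and 68.7 in control per kb of the shorter exons of its RefSeq transcript, which would place it first in either group. At the low end, Hoxa3 had 1.54 ± 0.311 in mutant and 0.770 ± 0.290 in control. Per kb of RefSeq exons Hoxa3 was at 3.57 in mutant and 1.79 in control, and the lowest gene was Hoxb8 in mutant (2.07) and Hoxc4 in control (1.74). The lowest group mean of the 30 genes was 3.78 kb in mutant and 3.45 kb in control, and the lowest higher-group mean in the table was 3402 bases, so no HOX gene was in the table through its higher group alone.

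**Figure D4:**
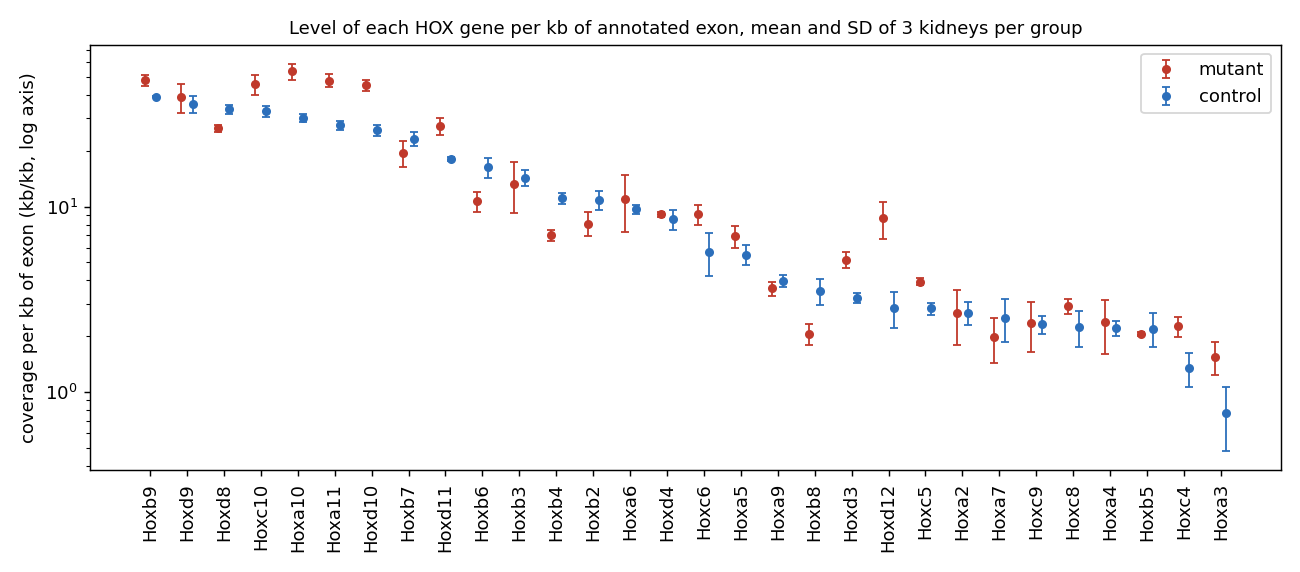
Coverage per kb of annotated exon (log axis) of the 30 HOX genes in order of their control level, mutant left of control; points are means and bars SD of 3 kidneys. Hoxa10, Hoxa11, Hoxc10 and Hoxd10 stand above their control level at the high end of the range, Hoxd12 stands furthest above it, and Hoxb4 and Hoxb8 stand below.

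HOX proteins bind DNA with partners of the PBX and MEIS families. Among the genes of these partners Meis1, Meis2, Meis3 and Pknox2 rose, and Pbx2, Pbx3 and Pknox1 did not pass. Meis2 had 178, 160 and 152 kb in mutant and 70.5, 78.1 and 67.9 kb in control, with the groups far apart (log2 fold change 1.18, SE 0.09, limma adjusted p = 3.65e-06). Meis1, which also stands among the stromal markers, rose by 0.77, Pknox2 by 0.94 and Meis3 by 0.55 on the log2 scale. Meis3 lost its call with the deposited p-values (0.113). Pbx2 (0.12, adjusted p = 0.309), Pbx3 (0.18, 0.255) and Pknox1 (0.02, 0.844) did not pass; Pbx3 passed as higher (0.39, adjusted p = 0.0154) after removal of length and GC trends.

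The partners and targets of the group 11 proteins in nephron progenitors were lower or did not pass. Of 6 listed genes 5 were in the table, 4 fell (Eya1, Six2, Pax2 and Itga8), and Gdnf, the growth factor that draws out the ureteric bud, did not pass at 36.7, 41.0 and 29.3 kb in mutant and 37.2, 36.0 and 34.5 kb in control. Itga8, an integrin of the cap mesenchyme, had 131, 133 and 126 kb in mutant and 220, 213 and 230 kb in control (log2 fold change -0.77, SE 0.08, limma adjusted p = 1.72e-05). The calls of Eya1, Six2 and Pax2 were lost in 5 of 14, 4 of 14 and 7 of 13 alternatives (adjusted p up to 0.185, 0.0771 and 0.172). Eya1, Six2 and Gdnf also stand among the nephron progenitor markers above, and 24.6% of all genes fell at the same threshold.

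Genes beside the clusters were read from the same fit. Of 18 measured flanking genes 1 rose, 10 fell and 7 did not pass, with a median log2 fold change of -0.39. Over all genes 21.5% rose and 24.6% fell, with a median of -0.03. Once length and GC trends were removed, 6 of the 10 falls lost their call and the median was -0.20. With the deposited p-values 5 fell, and without con1 6 did, beside 16.7 and 19.1% of all genes. The gene that rose, named after its values were seen, was Calcoco1 beside cluster C (log2 fold change 0.62, limma adjusted p = 0.00195; 0.0843 with the deposited p-values). Atp5g1, which encodes a subunit of mitochondrial ATP synthase and lies beside cluster B, was the 1 flanking gene past the threshold at 2-fold. It had 9.67, 3.26 and 4.31 kb in mutant and 21.6, 18.7 and 11.8 kb in control, with every mutant library lower (log2 fold change -1.71, SE 0.36, limma adjusted p = 0.0024). With the deposited p-values it missed the threshold (0.075). The flanking homeobox genes Evx1 and Evx2 and the listed microRNA genes of the clusters were not in the table and were not analysed here.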

How the data were processed

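Total RNA of whole E17.5 kidneys was freed of ribosomal RNA (Ribominus) and made into Ion Total RNA-seq libraries, per the labels' protocols. The submitters' processing notes name mm10 and bedtools; the sources used here do not give the aligner, annotation or use of strand. For 13203 genes, each with a higher-group mean of at least 3402 units, the authors deposited a coverage signal per library scaled to 976 Mb, not divided by gene length. The lowest values in every library (339 to 461 in the libraries checked) were multiples of a single step, each to within 0.02 of it, which gave the unscaled totals; these are bases, not reads, so no count model was applied and read numbers are unknown. The ratio in the deposited table is the mutant over the control mean, and its p-value equals an equal-variance test of linear values.

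Columns were assigned to groups by name; no column was left without a group. Values were transformed as log2(value + 1) and fitted over all genes with limma 3.58.1 (R 4.3.3), empirical Bayes with a mean-variance trend, two-sided, Benjamini-Hochberg adjusted over all genes at 0.05; requiring values above 1 in 3 libraries removed 0 genes. The fit was first tested on simulated data. GENCODE M21 gave positions and exon lengths (13117 genes matched by symbol or older symbol) and RefSeq the promoters. Alternatives were a pseudocount of 1000, leaving out the lowest 0.25 of genes by mean, trimmed-mean and quantile scaling, no trend, array weights, the deposited p-values, removal of length and GC trends, each library left out in turn and, after the data were seen, RefSeq exon lengths. The HOX genes, the lists and the neighbouring pairs were chosen with earlier results of these data known. Printed by library are paralog groups 10 and 11, Hoxb7 and the 2 largest passing rises and falls of each cluster; of the cofactors and partners those in the text; Hoxb3, Hoxd9, Hoxa11as and Calcoco1 were added after their values were seen. Not every HOX or cofactor gene is reported here.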

Additional observations from a re-analysis of the deposited data

How the results depend on the processing

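The 12 rises and 5 falls among HOX genes became 9 to 11 and 3 to 6 when one library was left out, and 8 and 3 with the deposited p-values. Over all genes the share that rose was 16.99 to 20.2% and the share that fell 19.1 to 24.0% with a library left out, and 14.5 and 16.7% with the deposited p-values. Over 520 single-gene alternatives of HOX and cofactor genes 490 kept their call, 26 lost it, 4 gained it and none of the called values changed sign. Smarca4 missed the threshold with the deposited p-values (log2 ratio -0.42). The median log2 fold change of cluster A ranged from -0.055 (without mut1) to 0.41 (without mut3). The summed coverage of paralog group 4 had a log2 ratio of -0.089 under quantile normalization; the cause was not tested. The filter on low values left 18 HOX genes, so 12, among them Hoxa3, Hoxb8, Hoxc4 and Hoxc5, had no value there. No paired analysis was possible because the columns carry no animal numbers and the labels share none between the groups. Coverage per gene limits Hoxc4 and Hoxa3 most, at 0.796 and 0.481 times their exon length in the weakest library.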
